A study of Mus musculus with 28 samples.

Results

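Gata3 and 8 genes of the type 2 immune response were followed in CD4+ T cells of the mouse small intestine. The 9 genes were chosen by symbol from a list: Gata3, Il4, Il5, Il13, Areg, Il4ra, Ccr8, Il17rb and Pparg. All 9 were found among the 25124 genes of the deposited table, and 8 of them passed the filter on low values that left 12182 genes for testing. Pparg did not pass it.

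RNA was sequenced from sorted cells of the small intestinal lamina propria, the connective tissue under the gut epithelium. The sort kept live CD45+ CD90.2+ TCRb+ CD4+ cells, with no gate that separates regulatory from helper T cells. Mice of every group carried T-bet-ZsGreen, a fluorescent reporter of T-bet, and their age was not given in the sources used here. Mice were either colonised, under specific-pathogen-free housing (SPF), or germ-free (GF), and were given either anti-CD3 (aCD3), an antibody that cross-links the T cell receptor complex, or its isotype control. There were 6 libraries from SPF mice given isotype and 6 from SPF mice given aCD3, each with 3 of either sex, 10 from GF mice given isotype, with 5 of either sex, and 6 from GF mice given aCD3, of which 1 was female. Libraries are named here by sex letter and replicate number, as in F1 or M3. The labels do not say whether each library came from a separate mouse, so p-values measure only the spread between these samples, which may in part be technical.

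GATA3 is the transcription factor that directs CD4+ T cells to the type 2 helper fate and opens the locus that holds Il4, Il13 and Il5. Interleukins 4 and 13 act through a receptor that contains the Il4ra product and signal through STAT6, and together with interleukin 5 they drive mucus secretion, eosinophil recruitment and worm expulsion in the gut. GATA3 is also made by a share of the regulatory T cells of the gut wall and by group 2 innate lymphoid cells. Areg encodes amphiregulin, an epidermal growth factor receptor ligand that promotes tissue repair and is made by type 2 lymphocytes and regulatory T cells.

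The members lie at separate places of the mouse genome, build mm10, as the table gives them. Gata3 is at chr2:9857078-9878600 on the minus strand, and Areg at chr5:91139599-91148432 on the plus strand. Il13 (chr11:53631323-53634702, minus), Il4 (chr11:53612461-53618665, minus) and Il5 (chr11:53720794-53725103, plus) share the type 2 cytokine locus. Il4ra is at chr7:125552271-125579474, Ccr8 at chr9:120092133-120094906, Il17rb at chr14:29996168-30008896 and Pparg at chr6:115422066-115490401. No member shares bases with another row of the table. GENCODE M21 lists antisense or overlapping genes at Gata3, Il5, Il4ra, Il17rb and Pparg, and the use of strand in counting is not given in the sources used here, so reads of these partners cannot be told apart from those of the members.

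Promoters of all 9 members were found in RefSeq (GRCm38.p6), each as the 250 bases before and the 50 after the transcription start. Those of Gata3, Areg, Il4 and Il13 are shown because these genes differed most clearly between groups or encode the cytokines that GATA3 is known for. Capitals mark matches to 4 searched motifs: a cyclic AMP response element (CRE, TGACGTCA), an AP-1 site (TGANTCA), the motif of GATA factors (GATA with A or T before it and A or G after it) and a STAT site (TTCNNNNGAA), read on both strands.
Gata3, chr2:9878551-9878850, minus strand: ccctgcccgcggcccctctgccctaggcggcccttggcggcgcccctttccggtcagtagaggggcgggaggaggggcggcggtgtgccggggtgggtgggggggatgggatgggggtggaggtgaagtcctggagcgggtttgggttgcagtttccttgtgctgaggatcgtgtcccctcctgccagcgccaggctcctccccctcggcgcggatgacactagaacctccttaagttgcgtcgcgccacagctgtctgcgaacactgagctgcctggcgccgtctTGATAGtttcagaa
Areg, chr5:91139349-91139648, plus strand: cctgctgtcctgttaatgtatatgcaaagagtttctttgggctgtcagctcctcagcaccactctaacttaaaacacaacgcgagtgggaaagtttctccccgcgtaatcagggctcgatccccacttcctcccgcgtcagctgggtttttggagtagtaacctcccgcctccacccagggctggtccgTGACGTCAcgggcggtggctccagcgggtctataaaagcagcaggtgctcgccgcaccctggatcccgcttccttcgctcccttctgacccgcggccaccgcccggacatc
Il4, chr11:53618616-53618915, minus strand: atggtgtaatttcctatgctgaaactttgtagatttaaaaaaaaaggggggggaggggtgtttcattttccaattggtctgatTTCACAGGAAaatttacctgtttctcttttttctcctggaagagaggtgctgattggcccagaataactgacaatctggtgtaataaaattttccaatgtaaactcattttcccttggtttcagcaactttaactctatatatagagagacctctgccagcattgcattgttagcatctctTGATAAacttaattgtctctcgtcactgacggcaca
Il13, chr11:53634653-53634952, minus strand: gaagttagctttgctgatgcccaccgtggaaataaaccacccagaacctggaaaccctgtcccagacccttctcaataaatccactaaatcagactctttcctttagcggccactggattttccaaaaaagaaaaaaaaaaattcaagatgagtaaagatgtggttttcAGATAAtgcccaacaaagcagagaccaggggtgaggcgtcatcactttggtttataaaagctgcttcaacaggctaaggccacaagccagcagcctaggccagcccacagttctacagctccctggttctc

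Areg was the only member with a CRE match in this window, at bases 190 to 197, and 1.89% of 26742 RefSeq promoters of the same length held one. GATA matches lay at bases 287 to 292 in Gata3, 265 to 270 in Il4 and 170 to 175 in Il13, and each of Il5 and Ccr8 held 1 on the other strand. A GATA match occurred in 30.07% of all promoters. Il4 also held a STAT match at bases 84 to 93, against 7.01% of promoters, and Il17rb an AP-1 match at bases 147 to 153, against 7.92%. None of these letters occurred in the Il4ra and Pparg windows. These matches describe the letters only and were not tied to binding.

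Depth and composition differed between libraries. SPF isotype libraries had 10293606 to 13193753 reads in genes, SPF aCD3 libraries 8452632 to 12081480, GF isotype libraries 6765529 to 17860610 and GF aCD3 libraries 7804789 to 17793823. All 9 CD4 T cell markers checked, Cd3e and Cd4 among them, averaged at least 1 TPM (the deposited length-adjusted share of a library) in every group. The 73 histone genes took 4.26% to 7.24% of TPM in SPF isotype, 23.91% to 26.96% in SPF aCD3 and 4.01% to 9.46% in GF isotype. In GF aCD3 the libraries M1, M2 and M5 held 23.6%, 23.22% and 26.11%, while F1, M3 and M4 held 5.6%, 7.71% and 6.64%. Since TPM is a share of a total, fold changes were also computed after scaling each library by the median of its gene ratios. Fold changes below were taken from log2(TPM + 1), where the added 1 shrinks the change of genes at low levels, and p-values come from limma with Benjamini-Hochberg adjustment over all tested genes unless an exact test is named. In a bulk sample, fewer cells of a type and less RNA per cell cannot be told apart. GF libraries carry sample numbers 25 to 33 or 48 to 54 in the column names, with 3 aCD3 libraries in each run of numbers, while SPF libraries carry 1 to 12, so that housing and number run cannot be told apart.

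**Figure D1:**
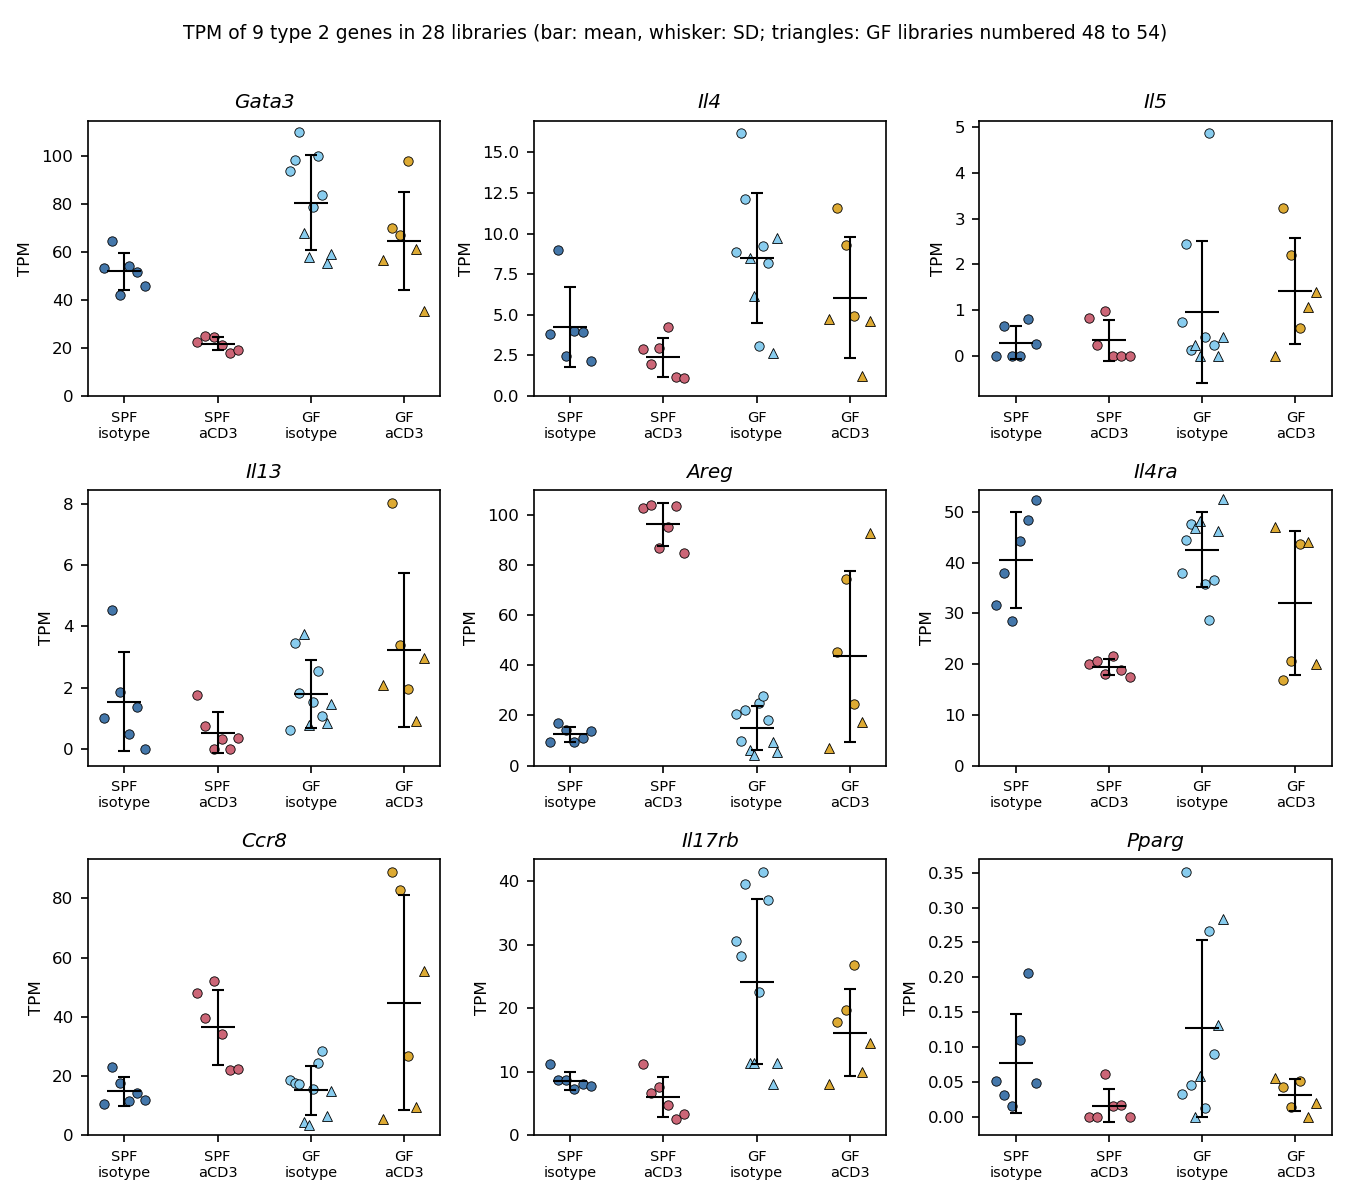
Transcript level (TPM, vertical axis from or near 0) of the 9 genes in each of 28 libraries by group; the bar is the mean, the whisker the SD, and triangles mark GF libraries numbered 48 to 54. Gata3 in SPF aCD3 lies between 17.9 and 24.99 TPM, below every library of the other groups, and Areg in SPF aCD3 lies between 84.5 and 104 TPM, above every isotype library.

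In SPF mice, Gata3 and Il4ra fell and Areg and Ccr8 rose under aCD3. The effect of T cell receptor engagement in mice with a flora is what this comparison addresses. Of the 8 tested members, 2 rose, against 14.2% of all tested genes, and 2 fell, against 50.7% of all tested genes. Falls were thus common in this comparison, and the members' median log2 change was -0.58 against -0.35 over all tested genes. Over all genes, 1726 rose and 6172 fell on TPM, but 3727 rose and 3575 fell after scaling, where the same counts of members were called.

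Gata3 ran from 42.3 to 64.8 TPM in SPF isotype, with a median of 52.5, and from 17.9 to 24.99 TPM in SPF aCD3, with a median of 22.0. Every SPF aCD3 library lay below every SPF isotype library. The mean fell from 52.1 ± 7.76 TPM (SD, n = 6) to 21.8 ± 2.83 TPM (n = 6), and the log2 fold change was -1.21 (SE 0.19, limma adjusted p = 1.09e-05) and -0.81 after scaling (adjusted p = 0.000233). Among all tested genes, 41.9% showed no overlap between these groups. The exact two-sided permutation test gave p = 0.0022 for Gata3, Areg and Il4ra alike, the smallest that 924 arrangements can give.

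Areg moved the other way. It ran from 9.18 to 17.1 TPM in SPF isotype, with a median of 12.3, and from 84.5 to 104 TPM in SPF aCD3, with a median of 99.0. No library of one group reached the range of the other. The means were 12.4 ± 3.10 TPM (n = 6) and 96.1 ± 8.69 TPM (n = 6), a ratio of 7.73, and the log2 fold change was 2.88 (SE 0.46, limma adjusted p = 1.53e-05) and 3.30 after scaling.

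The cytokines themselves did not pass the test in SPF mice. Il4, the interleukin that sustains type 2 differentiation, had 25 to 80 reads per library in SPF isotype and 11 to 48 in SPF aCD3, with means of 4.23 ± 2.47 and 2.39 ± 1.21 TPM (n = 6 each). Its log2 fold change was -0.60 (SE 0.37, limma adjusted p = 0.156). Il13, which acts on epithelium and goblet cells, summed to 51 reads over the 6 SPF isotype and 19 over the 6 SPF aCD3 libraries, with a log2 fold change of -0.61 (SE 0.36, adjusted p = 0.135). Il5, the eosinophil growth factor, summed to 12 and 18 reads and was at 0 in 3 libraries of each group. At 0 reads a library allows up to 3 reads, which are worth 0.285 to 0.750 TPM for Il5 and 0.364 to 0.957 TPM for Il13, so differences of that size were not detectable at this depth. These limits cover counting error only.

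Among the receptors, Il4ra, the shared subunit of the interleukin 4 and 13 receptors, ran from 28.4 to 52.5 TPM in SPF isotype (median 41.2) and from 17.5 to 21.6 TPM in SPF aCD3 (median 19.4). The groups did not overlap. Its log2 fold change was -0.998 (SE 0.21, limma adjusted p = 0.000288) and -0.59 after scaling (adjusted p = 0.0027). Ccr8, a chemokine receptor of type 2 helper and regulatory T cells, ran from 10.4 to 23.1 TPM in SPF isotype (median 13.0) and from 21.8 to 52.2 TPM in SPF aCD3 (median 36.9), with 4 of 6 aCD3 libraries above every isotype library. Its log2 fold change of 1.22 (SE 0.54) sat at the threshold, with a limma adjusted p of 0.0499, and was 1.63 after scaling (adjusted p = 0.0181). The call was lost with a pseudocount of 0.1 (adjusted p = 0.0549) and with no filter on low values (adjusted p = 0.0809). Leaving out single libraries in turn gave Ccr8 log2 fold changes of 1.06 to 1.40 with adjusted p from 0.0282 to 0.108. It kept its call in 11 of 28 such fits, and lost it most clearly without SPF aCD3 F3 (1.06, adjusted p = 0.108). Il17rb, a subunit of the receptor for the tuft cell cytokine interleukin 25, had means of 8.56 ± 1.39 and 5.98 ± 3.21 TPM (n = 6 each), and its log2 fold change of -0.57 (SE 0.37, adjusted p = 0.178) did not pass.

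Other cell markers moved in the same comparison. The summed level of 7 regulatory T cell markers was 463.5 to 759 TPM in SPF isotype and 1199 to 1477 TPM in SPF aCD3, and 4 of 6 tested markers rose: Il2ra, Ctla4, Tnfrsf18 and Lrrc32. Ctla4, an inhibitory receptor, had means of 518 and 1088 TPM. Foxp3, the defining factor of these cells, and Ikzf2 did not pass, with means of 23.8 and 35.2 TPM and of 12.2 and 11.5 TPM. Of 9 tested CD4 T cell markers, Cd3e and Cd3d rose and Cd28, Thy1 and Ptprc fell, and of 6 tested epithelial and tuft cell markers 2 fell, Cdh1 (-1.12 on the log2 scale) among them. Markers of B and plasma cells summed to 192 to 376 TPM in SPF isotype and 87.6 to 155 TPM in SPF aCD3, and the stromal markers to 15.0 to 50.8 and 2.86 to 6.02 TPM. Of 4 tested B and plasma cell markers 2 fell, Jchain (means of 169 and 0.792 TPM) and Mzb1. Xbp1, the largest part of the SPF aCD3 sum, was not called, with means of 103 and 116 TPM. Within the 10 myeloid markers, Cd68 averaged 5.99 TPM in SPF isotype and 76.5 TPM in SPF aCD3, while C1qa and C1qb were at 0 in all SPF aCD3 libraries. The part of these cells in the results for Gata3, Areg, Il4ra and Ccr8 was not tested.

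Markers of innate cells that can make type 2 cytokines were also measured, although the sort for TCRb+ CD4+ cells would remove those cells. Of 10 mast cell and basophil markers, 1 averaged at least 1 TPM in each group, Fcer1a and Ms4a2 were at 0 in every library of the other groups and at most 0.089 and 0.05 TPM in GF isotype, and the 10 together summed to 1.24 to 4.59 TPM. The 6 eosinophil markers summed to 0.117 to 4.82 TPM. The 7 markers of group 2 innate lymphoid cells summed to 21.0 to 30.4 TPM in SPF isotype, 23.5 to 44.1 in SPF aCD3, 9.86 to 49.8 in GF isotype and 14.4 to 37.5 in GF aCD3. These sums overlapped between all groups, but single markers changed. Under aCD3 in SPF mice, Kit rose, with libraries at 0.764 to 1.39 TPM under isotype and 3.94 to 5.21 TPM under aCD3 (log2 fold change 1.46, limma adjusted p = 7.33e-06) and Ltb4r1 rose by 0.99 on the log2 scale. Between GF and SPF aCD3, Kit and Ltb4r1 were lower in GF (-1.06 and -1.56), and Kit rose by 0.67 under aCD3 in GF mice (adjusted p = 0.0484). Nmur1 ran from 1.81 to 33.7 TPM in GF isotype (mean 12.3, against 7.11 in SPF isotype). Il1rl1 ran from 1.70 to 16.9 TPM there (mean 7.72, against 4.73). Of the 6 tested markers of this list, 0 were called between GF and SPF isotype. The part of these cells in the results for Areg and the cytokines was not tested.

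The genes around the members in the pathway moved in SPF mice as follows. Of 19 tested partners of Gata3 and factors of type 2 cells, 6 rose and 11 fell, or 6 and 8 after scaling, with a median log2 change of -0.39. Over all tested genes 14.2% rose and 50.7% fell, with a median of -0.35, and the counts of every list below stand beside these shares. Junb, an AP-1 subunit that activates Il4, averaged 7110 TPM in SPF isotype and 1414 TPM in SPF aCD3 (log2 fold change -2.33, SE 0.33, limma adjusted p = 5.06e-06). Lmo4 fell from 34.5 ± 5.90 to 6.88 ± 1.57 TPM (n = 6 each), Rora from 72.0 ± 14.1 to 19.1 ± 3.41 TPM, and Tcf7, which promotes Gata3 expression, by 1.58 on the log2 scale.

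Of 9 tested factors that oppose Gata3 or direct other helper fates, 1 rose and 6 fell, or 1 and 5 after scaling. Hlx, a homeobox partner of T-bet, rose from 0.962 ± 0.449 to 6.30 ± 1.65 TPM (n = 6 each, log2 fold change 1.90, SE 0.26, limma adjusted p = 3.95e-06). Runx1, Stat4 and Bcl6 fell by 1.03, 0.96 and 0.86 on the log2 scale. Of 8 tested genes of interleukin 4 and 13 receptor signalling, 1 rose and 6 fell, or 1 and 3 after scaling. Stat6, the factor that the receptor activates, fell from 41.1 ± 4.46 to 21.2 ± 0.862 TPM, and Cish, a feedback inhibitor of cytokine receptors, from 175 ± 26.6 to 58.6 ± 15.0 TPM. Jak3, a kinase of the common gamma chain, rose with a log2 fold change of 0.57, and Socs1, a feedback inhibitor, had -0.71 on TPM (adjusted p = 0.00422) but -0.30 after scaling (adjusted p = 0.135).

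Other type 2 receptors and enzymes split, with 2 of 10 tested genes higher and 4 lower, or 3 and 4 after scaling. Il9r, the interleukin 9 receptor, fell from 8.51 ± 2.29 to 0.986 ± 0.362 TPM, and Hpgds, which makes prostaglandin D2, from 10.5 ± 2.57 to 1.63 ± 0.539 TPM. Ccr4, a chemokine receptor of type 2 helper cells, fell from 79.9 ± 7.82 to 29.9 ± 7.53 TPM. Crlf2, a receptor subunit for thymic stromal lymphopoietin, rose from 27.8 ± 3.72 to 57.0 ± 8.33 TPM (n = 6 each, limma adjusted p = 2.67e-05). Among 5 tested other effectors, Ecm1 rose from 14.9 ± 2.50 to 66.5 ± 6.30 TPM, Penk, the enkephalin precursor, from 11.5 ± 3.62 to 46.3 ± 15.96 TPM, and Tnfsf11 fell by 1.01 on the log2 scale. The direction of each gene named from these lists was the same after scaling.

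**Figure D2:**
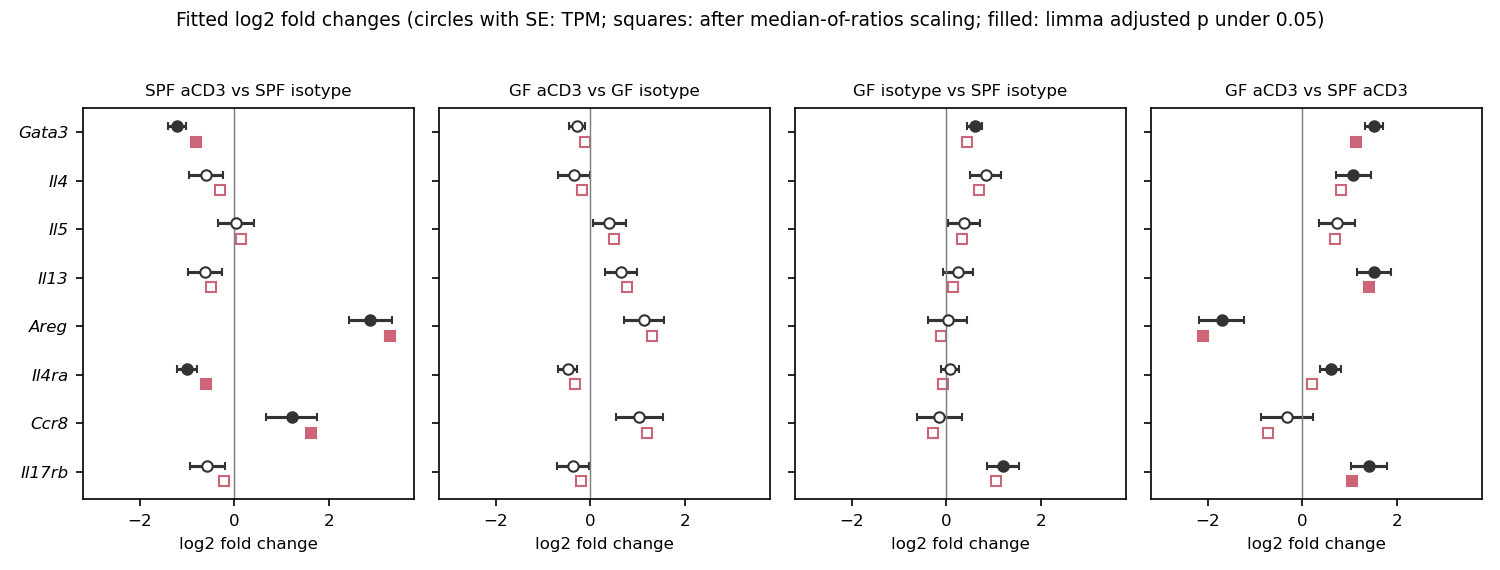
Fitted log2 fold changes (horizontal axis) of the 8 tested members in 4 comparisons; circles with SE whiskers are on TPM, squares after median-of-ratios scaling, and filled marks passed an adjusted p of 0.05 in limma. In SPF mice Areg stands at 2.88 and Gata3 at -1.21, while no mark is filled for aCD3 in GF mice.

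In GF mice, no member passed the test under aCD3. The comparison asks whether the aCD3 effect is seen without a flora. Among all tested genes, 2.46% rose and 4.61% fell in limma, 300 and 562 genes, or 685 and 500 after scaling. These counts rest on the exact set of libraries: leaving out a single library gave 0 called genes in 25 of 28 fits, and 3630, 4213 and 3859 without GF aCD3 F1, M3 or M4. Unadjusted p-values under 0.05 were found for 4351 genes and for 3 members, Areg (0.0123), Il4ra (0.0226) and Ccr8 (0.0471), and the fit on recovered reads with voom also called 0 members. Only 0.0657% of tested genes separated the 2 groups without overlap, and no member did.

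The GF aCD3 libraries differed widely from each other in 3 members. Areg was 45.3, 74.3 and 92.5 TPM in M1, M2 and M5, and 6.89, 24.4 and 17.3 TPM in F1, M3 and M4. Over both number runs, GF isotype libraries ran from 4.09 to 27.7 TPM with a median of 14.1. M1, M2 and M5 lay above all 10 of them, and the other 3 lay within this pooled range. Within libraries 48 to 54, however, M4 lay above all 4 isotype libraries (4.09 to 9.235 TPM). This held after scaling (14.8 against 3.53 to 7.96 scaled TPM). F1 and M3 lay within the isotype range of their own runs. Il4ra was 16.8, 20.7 and 20.1 TPM in M1, M2 and M5, below all 10 isotype libraries (28.6 to 52.6 TPM, median 45.4). It was 47.0, 43.7 and 44.2 TPM in F1, M3 and M4, within this pooled range. Within libraries 48 to 54, however, M4 lay below all 4 isotype libraries (46.3 to 52.6 TPM). After scaling it lay just below them (37.9 against 38.1 to 45.9 scaled TPM). Ccr8 was 88.9, 82.9 and 55.4 TPM in M1, M2 and M5, above all isotype libraries (3.56 to 28.2 TPM, median 16.5), and 5.31, 26.7 and 9.61 TPM in F1, M3 and M4. Read within the runs, Ccr8 in F1, M3 and M4 lay within the isotype range. M1, M2 and M5, but not M4, are the GF aCD3 libraries with the high histone share given above, and the part of that share in these values was not tested.

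For Gata3, too, the number run has to be read with that split, since isotype levels differed between the runs. It was 70.1, 67.3 and 35.3 TPM in M1, M2 and M5, and 56.9, 98.2 and 61.5 TPM in F1, M3 and M4, against 55.6 to 110.4 TPM in GF isotype (median 81.4). Over both runs, M5 alone lay below every GF isotype library. Within libraries 25 to 33, M1 and M2 lay below all 6 isotype libraries (78.96 to 110.4 TPM), and M3 lay within their range. Within libraries 48 to 54, M5 lay below all 4 isotype libraries (55.6 to 68.1 TPM), and F1 and M4 lay within their range. On TPM, Gata3 was thus below its run's isotype range in M1, M2 and M5 and within it in the other 3. After scaling, M1 and M2 lay within the range of their run (78.2 and 75.3 against 72.7 to 93.4 scaled TPM) and M5 below it (42.5 against 47.9 to 55.4). GF isotype averaged 80.7 ± 19.7 TPM (n = 10) and GF aCD3 64.9 ± 20.5 TPM (n = 6), and the log2 fold change was -0.29 (SE 0.17, limma adjusted p = 0.2201).

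**Figure D3:**
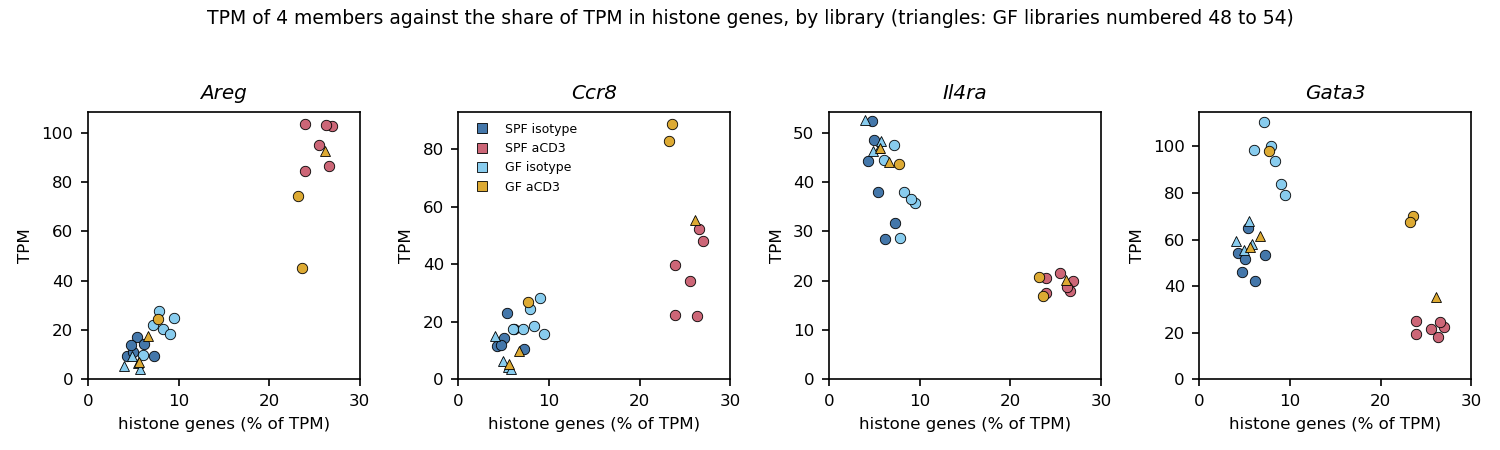
TPM (vertical axis) of Areg, Ccr8, Il4ra and Gata3 against the percent of TPM in 73 histone genes (horizontal axis), 1 point per library; triangles mark GF libraries numbered 48 to 54. Areg lies above 40 TPM and Il4ra below 22 TPM in the libraries past 20% histone share, and Gata3 in GF aCD3 libraries M1 and M2 lies at 70.1 and 67.3 TPM there, below the 78.96 to 110.4 TPM of the isotype libraries of their run. After scaling, not drawn here, Gata3 in M1 and M2 lies within the range of their run (78.2 and 75.3 against 72.7 to 93.4 scaled TPM).

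The fitted log2 fold changes in GF mice were 1.14 for Areg (SE 0.42, limma adjusted p = 0.0706), -0.48 for Il4ra (SE 0.20, adjusted p = 0.0913) and 1.04 for Ccr8 (SE 0.50, adjusted p = 0.135). With the number run as a covariate, all 3 passed, at 1.30 (adjusted p = 0.0226), -0.53 (adjusted p = 0.0490) and 1.25 (adjusted p = 0.0311). Within libraries 25 to 33 the values were 1.08, -0.63 and 1.65, and Areg and Ccr8 passed (adjusted p = 0.0307 and 0.00914). Within libraries 48 to 54 they were 1.71, -0.48 and 1.07, and no gene of the table passed there (0 of 12182, with 1700 at an unadjusted p under 0.05). Leaving out GF aCD3 F1 called 3 members (Areg 1.63, Il4ra -0.66, Ccr8 1.62), leaving out M4 called the same 3 (1.31, -0.59, 1.34), and leaving out M3 called Areg (1.22) and Il4ra (-0.59).

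The cytokines were again low. Il13 summed to 108 reads over 10 GF isotype and 106 over 6 GF aCD3 libraries, with means of 1.79 ± 1.11 and 3.22 ± 2.51 TPM, and its log2 fold change was 0.65 (SE 0.33, limma adjusted p = 0.156). Il5 summed to 56 and 60 reads, with a log2 fold change of 0.40 (adjusted p = 0.414). Il4 had means of 8.48 ± 4.00 TPM (n = 10) and 6.06 ± 3.73 TPM (n = 6), and Il17rb 24.2 ± 13.0 and 16.1 ± 6.84 TPM, with adjusted p-values of 0.461 and 0.435. Each of these 4 genes overlapped between the groups.

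In the lists, 5 genes passed in GF mice, each with an adjusted p between 0.0481 and 0.0499, and their calls are lost wherever leaving out a library takes all calls to 0. Ecm1 rose from 15.1 ± 6.08 to 26.97 ± 12.7 TPM (limma adjusted p = 0.0484), and Ptger2, a prostaglandin E2 receptor, from 6.46 ± 2.06 to 11.4 ± 4.71 TPM (adjusted p = 0.0488). Lmo4 fell from 32.96 ± 7.45 to 19.0 ± 10.6 TPM (adjusted p = 0.0481; n = 10 and 6 throughout). Of 5 tested neighbours of the type 2 cytokine locus, 2 fell: Irf1, an interferon response factor, from 258 ± 18.5 to 186 ± 71.1 TPM (adjusted p = 0.0481), and Slc22a5, a carnitine transporter, from 6.82 ± 0.949 to 5.02 ± 1.72 TPM (adjusted p = 0.0499, or 0.0632 after scaling). Of 9 opposing factors, 8 receptor signalling genes and 11 PPAR partners and targets, none passed on TPM, and 1 signalling gene rose after scaling. Regulatory T cell markers summed to 434 to 892 TPM in GF isotype and 626 to 1290 TPM in GF aCD3, with none of 6 tested markers called.

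Under isotype, GF mice had higher Gata3 and Il17rb than SPF mice on TPM. This comparison sets GF against SPF mice without aCD3, where housing cannot be told apart from the number run. Of the 8 tested members 2 were higher, against 6.42% of tested genes, and 0 were lower, against 0.755%. After scaling, 782 higher and 92 lower genes became 66 and 133, and neither member passed, at 0.44 for Gata3 (adjusted p = 0.155) and 1.05 for Il17rb (adjusted p = 0.134; unadjusted p = 0.00717 and 0.00542).

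Gata3 averaged 52.1 ± 7.76 TPM (n = 6) in SPF isotype and 80.7 ± 19.7 TPM (n = 10) in GF isotype, where 7 of 10 libraries lay above every SPF library. Its log2 fold change was 0.60 (SE 0.17, limma adjusted p = 0.0296; exact permutation p = 0.0040). Il17rb ran from 7.22 to 11.1 TPM in SPF isotype (median 8.32) and from 8.02 to 41.5 TPM in GF isotype (median 25.4), with 9 of 10 GF libraries above every SPF library. The log2 fold change was 1.20 (SE 0.33, adjusted p = 0.0277; exact permutation p = 0.0065). Groups did not overlap for 2.63% of tested genes, and for no member. Without SPF isotype F3, whose ribosomal RNA precursor took 22.9% of TPM, both calls were lost (Gata3 0.52, adjusted p = 0.105; Il17rb 1.18, adjusted p = 0.0737), as without GF isotype F3 (0.55 and 1.11, adjusted p = 0.0566 and 0.0526). The Gata3 call was also lost without SPF isotype F1 or M3 or GF isotype F2, at 0.59, 0.58 and 0.57.

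The GF isotype libraries split by their number run. In libraries 25 to 33, Gata3 averaged 94.3 ± 11.5 TPM (n = 6), and in libraries 48 to 54 60.3 ± 5.43 TPM (n = 4), with no overlap. Il17rb averaged 33.3 ± 7.37 and 10.5 ± 1.68 TPM, Areg 20.5 ± 6.19 and 6.23 ± 2.20 TPM, and Ccr8 20.3 ± 4.91 and 7.28 ± 5.17 TPM, each again without overlap. For each of these 4 genes the exact two-sided permutation test gave p = 0.0048, the smallest that 210 arrangements can give (adjusted over 9 members, p = 0.0107). No overlap between the runs was found for 10.0% of tested genes. Il4ra went the other way, with 38.5 ± 6.76 and 48.5 ± 2.82 TPM (exact permutation p = 0.0238). Against SPF isotype, the log2 fold change of Gata3 was 0.85 with the first run alone (adjusted p = 0.000179) and 0.22 with the second (adjusted p = 0.362), and that of Il17rb 1.82 (adjusted p = 4.72e-05) and 0.27 (adjusted p = 0.518). The higher levels therefore held within libraries 25 to 33 and were not called within libraries 48 to 54.

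**Figure D4:**
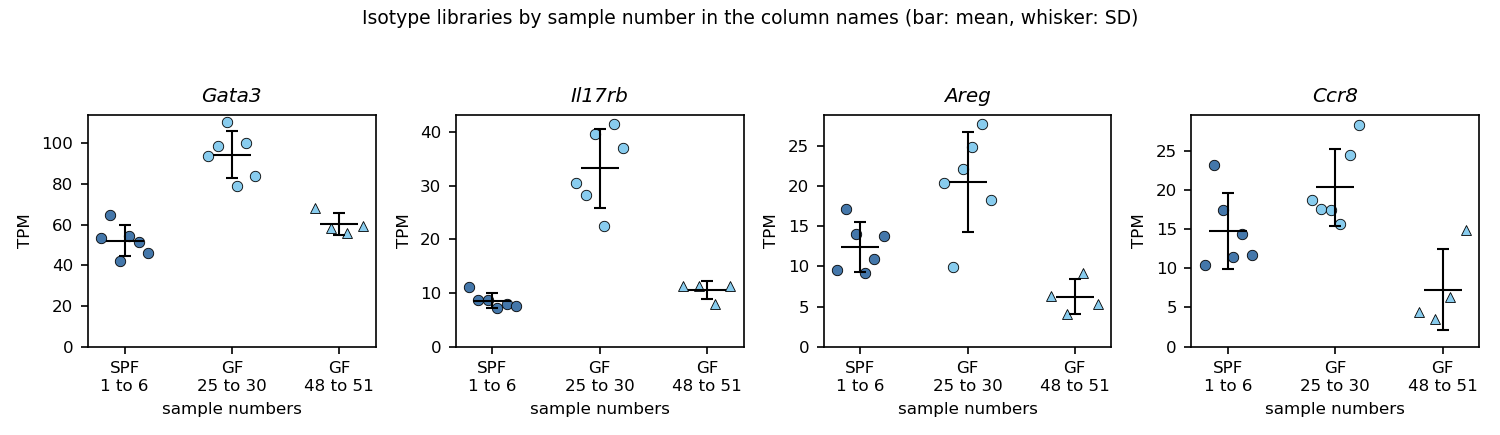
TPM (vertical axis from 0) of Gata3, Il17rb, Areg and Ccr8 in isotype libraries by sample number; bars are means and whiskers SDs. For Gata3 the SPF libraries average 52.1 TPM, GF libraries 25 to 30 94.3 TPM and GF libraries 48 to 51 60.3 TPM.

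The other members did not pass under isotype. Il4 was 2.18 to 8.99 TPM in SPF and 2.64 to 16.2 TPM in GF, and its log2 fold change was 0.83 (SE 0.33, limma adjusted p = 0.117). With libraries 25 to 33 alone it passed, at 1.01 (adjusted p = 0.0454), and with libraries 48 to 54 alone it was 0.57 (adjusted p = 0.367). Areg averaged 12.4 ± 3.10 and 14.8 ± 8.80 TPM, Il4ra 40.6 ± 9.49 and 42.5 ± 7.39 TPM, and Ccr8 14.8 ± 4.84 and 15.1 ± 8.23 TPM (n = 6 and 10), with log2 fold changes of 0.03, 0.08 and -0.15 that change sign under some settings. Il13 and Il5 had log2 fold changes of 0.25 and 0.38 (adjusted p = 0.638 and 0.503). From the pathway lists, Calca, a neuropeptide precursor, was higher in GF, at 6.49 ± 2.32 against 2.08 ± 1.59 TPM (log2 fold change 1.43, SE 0.29, adjusted p = 0.00456), and Cd200r1, an inhibitory receptor, at 11.2 ± 1.21 against 7.17 ± 1.16 TPM (adjusted p = 0.0243). Nfatc1, Tbx21 and Adam17 were higher on TPM (0.46, 0.47 and 0.30) and did not pass after scaling (adjusted p = 0.0731, 0.0901 and 0.199). Stromal markers summed to 7.61 to 13.8 TPM in GF isotype, with 3 of 4 tested lower than in SPF isotype. Of 4 tested B and plasma cell markers, Jchain alone was lower in GF (mean 39.6 against 169 TPM, log2 fold change -2.42, limma adjusted p = 0.0345), with sums of 114 to 210 TPM for the list. Of 6 tested regulatory T cell markers, Tnfrsf18 alone was higher in GF (mean 127 against 88.2 TPM, log2 fold change 0.53, adjusted p = 0.0311). The part of these cells in the results was not tested.

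Under aCD3, GF mice had higher Gata3, Il4, Il13, Il4ra and Il17rb and lower Areg than SPF mice on TPM. Of 8 tested members 5 were higher, against 48.9% of tested genes, and 1 was lower, against 4.46%. After scaling, where 1927 genes were higher and 2059 lower in place of 5953 and 543, 3 members were higher (Gata3, Il13 and Il17rb) and 1 lower (Areg). The share of members higher on TPM was thus close to that of all tested genes. The members' median log2 difference was 0.90, against 0.34 over all tested genes. That median includes Il5, which met the filter on low values only through GF libraries.

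Gata3 was 35.3 to 98.2 TPM in GF aCD3 and 17.9 to 24.99 TPM in SPF aCD3, with no overlap, as for 13.0% of tested genes. The log2 difference was 1.52 (SE 0.19, limma adjusted p = 2.06e-05) and 1.12 after scaling (adjusted p = 9.84e-05; exact permutation p = 0.0022, the smallest possible). Within libraries 25 to 33 alone it was 1.88, and within libraries 48 to 54 alone 1.19, and both passed (adjusted p = 2.46e-07 and 0.00105). All 6 GF aCD3 libraries lay above all 6 SPF aCD3 libraries, M1, M2 and M5 with their high histone share among them.

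Il13 was 0.901 to 8.03 TPM in GF aCD3 (4 to 37 reads per library) and 0 to 1.76 TPM in SPF aCD3 (0 to 10 reads), and 5 of 6 GF libraries lay above every SPF library. The log2 difference was 1.51 (SE 0.37, limma adjusted p = 0.0021) and 1.42 after scaling (adjusted p = 0.00921; exact permutation p = 0.0043). Il4 was 1.23 to 11.6 TPM against 1.11 to 4.22 TPM, with 5 of 6 GF libraries above every SPF library. Its log2 difference of 1.08 (SE 0.38, adjusted p = 0.0192) was 0.81 after scaling (adjusted p = 0.110), and 0.44 with libraries 48 to 54 alone (adjusted p = 0.361). Il5 summed to 60 reads against 18, with a log2 difference of 0.73 (adjusted p = 0.114), and passed without GF isotype M2 or GF aCD3 F1 (0.78 and 1.03, adjusted p = 0.0435 and 0.0427). No SPF library reached 1 TPM of Il5 (at most 0.991). It met the filter on low values only through GF isotype F2 and M2 and GF aCD3 M1, M2, M4 and M5. Its GF against SPF values are thus conditioned on being high in GF and are not taken as support for a difference.

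Areg was lower in GF aCD3 than in SPF aCD3, at 43.5 ± 33.9 against 96.1 ± 8.69 TPM (n = 6 each), and 5 of 6 GF libraries lay below every SPF library. The log2 difference was -1.71 (SE 0.47, limma adjusted p = 0.00464; exact permutation p = 0.0065) and -2.11 after scaling, and the call was lost with array weights (-1.35, adjusted p = 0.0531). GF aCD3 M5, at 92.5 TPM, lay within the SPF range. Il17rb was 8.10 to 26.8 TPM against 2.47 to 11.2 TPM, a log2 difference of 1.40 (SE 0.38, adjusted p = 0.00427) and 1.06 after scaling (adjusted p = 0.0425), and the call was lost with quantile normalization (1.02, adjusted p = 0.0553) and voom (1.06, adjusted p = 0.0805). Il4ra had a log2 difference of 0.60 (SE 0.22, adjusted p = 0.0255) but 0.20 after scaling (adjusted p = 0.359), and its call was lost without GF aCD3 F1, M3 or M4 or SPF aCD3 M3 (0.42, 0.49, 0.49 and 0.57). Ccr8 did not pass, at -0.33 (SE 0.55, adjusted p = 0.630).

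Among genes of the pathway lists, Hlx was lower in GF aCD3, at 0.524 ± 0.588 against 6.30 ± 1.65 TPM (n = 6 each, log2 difference -2.36, SE 0.26, limma adjusted p = 4.39e-06), and so was Ecm1 (26.97 ± 12.7 against 66.5 ± 6.30 TPM). Rora, Lmo4, Cebpb and Zfpm1, which encodes the GATA cofactor FOG-1, were higher, with log2 differences of 1.34, 1.28, 1.07 and 1.05 that all passed after scaling too. So were Il9r, Cd200r1, Ccr4, Calca, Tnfsf11, Runx1 and Bcl6 on both scales. Cish was higher on both scales (1.03 and 0.62), while Stat6, Jak1 and Socs1 were higher on TPM alone (0.47, 0.42 and 0.73, against 0.07, 0.01 and 0.32 after scaling). Of 6 tested regulatory T cell markers 1 was higher and 2 were lower in GF aCD3, where they summed to 626 to 1290 TPM against 1199 to 1477 TPM, and their part in the Areg difference was not tested. Other markers differed as well: Cd68 was lower in GF aCD3 (mean 29.9 against 76.5 TPM, adjusted p = 0.00475) and so was Lum, while Jchain (22.3 against 0.792 TPM, adjusted p = 0.0392), Hdc, Epcam and Pecam1 were higher, and their part in the member differences was not tested.

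The aCD3 effect on Gata3 differed between GF and SPF mice at the threshold. The interaction, the GF effect minus the SPF effect, was 0.92 on the log2 scale (SE 0.25, limma adjusted p = 0.0444), from effects of -0.29 and -1.21. It was 0.68 after scaling (adjusted p = 0.0513). Gata3 was the only one of the 8 tested members called, against 2.44% of tested genes called in this direction and 1.04% in the other, or 297 and 127 genes, which became 629 and 794 after scaling. Its value ran from 0.80 to 1.07 when single libraries were left out, with adjusted p from 0.00526 to 0.0887, and it kept its call in 7 of 28 such fits, those without SPF isotype F3, GF isotype F3, F4 or M2, or GF aCD3 M1, M2 or M5. The GF effect averages over unlike libraries. On TPM, Gata3 lay below the isotype range of its run in M1, M2 and M5, those with a high histone share. It lay within that range in F1, M3 and M4. After scaling, M1 and M2 also lay within the range of their run, and M5 alone lay below it. The part of this TPM split in the interaction was not tested. Markers of other cells also had called interactions in this fit: Jchain of plasma cells at 4.42 and the stromal Col1a1 and Dcn at 2.40 and 2.49 in the direction of Gata3, and Cd68 of myeloid cells at -2.84 (limma adjusted p = 0.0288, 0.0009, 0.000532 and 0.0289). Their part in the Gata3 interaction was not tested. The count over all genes was as sensitive, at 32, 137 and 97 genes without GF aCD3 F1, M3 or M4 and 2044, 2491 and 3187 without M1, M2 or M5. With the number run as a covariate it was 1.01 (adjusted p = 0.00159), with libraries 25 to 33 alone 1.03 (adjusted p = 0.00972), and with libraries 48 to 54 alone 0.98 (adjusted p = 0.0648).

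Areg and Il13 had interactions of -1.74 (SE 0.62, limma adjusted p = 0.0769) and 1.26 (SE 0.49, adjusted p = 0.0911) and did not pass. Areg passed without GF aCD3 M2 (-1.96, adjusted p = 0.0329) or M5 (-2.02, adjusted p = 0.021) and with libraries 25 to 33 alone (-1.80, adjusted p = 0.0362). Il4ra, Il5, Il4, Il17rb and Ccr8 had 0.52, 0.35, 0.25, 0.20 and -0.18, with adjusted p from 0.212 to 0.883. In the lists, Hlx had an interaction of -2.15 (adjusted p = 0.0026) and Ecm1 -1.33 (adjusted p = 0.0335), while Rora had 1.39, Lmo4 1.35, Bcl6 1.07 and Runx1 0.94 (adjusted p = 0.0364, 0.0298, 0.00958 and 0.0461). Those 6 genes passed after scaling as well. Rxrb, a nuclear receptor partner of PPARs, had 0.62 on TPM (adjusted p = 0.0412) and 0.38 after scaling (adjusted p = 0.0606).

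Pparg, a nuclear receptor of fat cells that type 2 helper cells of tissues also use, had few reads. Its TPM, at most 0.351 in any library, is taken per base of its long genomic span and is not set beside that of other genes. It had at most 43 reads in a library, and its summed reads were 55 for SPF isotype, 14 for SPF aCD3, 153 for GF isotype and 22 for GF aCD3. It was at 0 in 3 SPF aCD3, 1 GF isotype and 1 GF aCD3 library, where 3 reads would be worth 0.018 to 0.0473 TPM. In a fit without the filter on low values it was not called in any comparison (limma adjusted p from 0.134 to 0.973). The exact permutation test between SPF aCD3 and SPF isotype gave p = 0.0368, or 0.106 adjusted over the 36 member-by-comparison tests. Over these 36 tests, 10 had an adjusted p under 0.05. Of 11 tested PPAR partners and targets, 2 rose and 6 fell under aCD3 in SPF mice, or 5 and 6 after scaling, against 14.2% and 50.7% of all tested genes on TPM, with Ncoa1 at -1.26, Ncor1 at -0.97, Plin2 at -0.93 and Fabp5, a fatty acid binding protein, at 0.76.

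The groups ranked differently by gene, and neighbours in the order often overlapped. For Gata3 the order of mean TPM was GF isotype, GF aCD3, SPF isotype and SPF aCD3, and only SPF aCD3 stood apart from all others in every library. For Areg it was SPF aCD3, GF aCD3, GF isotype and SPF isotype, and the isotype groups overlapped. Il17rb followed the order GF isotype, GF aCD3, SPF isotype and SPF aCD3, with overlap between each pair of neighbours. For Ccr8 both aCD3 groups (44.8 ± 36.4 TPM in GF and 36.4 ± 12.7 TPM in SPF, n = 6 each) had higher means than both isotype groups, and the GF aCD3 libraries, at 5.31 to 88.9 TPM, overlapped every other group.

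The genes whose level followed Gata3 most closely across the 28 libraries were Tmem64, Chn2, Epas1, Rrp1 and Cep85l. Pearson's r of log2(TPM + 1) was 0.957, 0.9497, 0.943, 0.942 and 0.938, among 7922 genes with a mean of at least 5 TPM, and all points share the composition shifts described above. Tmem64, for example, averaged 54.4 and 19.3 TPM with isotype and aCD3 in SPF mice and 86.1 and 60.3 TPM in GF mice, and Epas1, a hypoxia-inducible factor, 10.5, 3.72, 20.7 and 13.7 TPM. Of the members, Il17rb had r = 0.836 with Gata3 (place 611), Il4 0.712, Il4ra 0.639, Ccr8 -0.25 and Areg -0.61. These values describe the libraries and were not tested.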

How the data were processed

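RNA of sorted small intestinal CD4+ T cells was sequenced in 28 libraries. The deposited table gives TPM for 25124 genes, which the authors computed with HOMER over RefSeq transcripts of mm10, condensed per gene, per the file headers. Aligner version, read filters and use of strand are not given in the sources used here. The length column equals the genomic span in 99.24% of rows, so TPM levels are not ranked between genes, and sums over marker lists and the histone share depend on each gene's genomic span and are set only beside the same sum in other libraries. A label names polyA RNA and the design text a total RNA kit. The table's other 26 TPM columns match no sample and were not used.

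TPM times length was a whole multiple of 1 step per library in 100.0% of low values checked (within 0.02 reads beyond rounding), which gave whole reads, 6765529 to 17860610 per library. Shares and limits from reads cover counting error only. Columns summed to 679994 to 786003 TPM.

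Genes that reached 1 TPM in 6 libraries or more were fitted with limma 3.58.1 (R 4.3.3) on log2(TPM + 1), with group means and sex over all 28 libraries, a trended empirical Bayes prior and Benjamini-Hochberg adjustment (threshold 0.05). Exact two-sided permutation tests compared mean log2(TPM + 1) of each member in 4 comparisons, 36 tests. Alternatives were median-of-ratios scaling, quantile normalization, TPM without Rn45s and histone genes, pseudocounts of 0.1 and 5, other filters, voom, no sex term, array weights, a replicate block, and leaving out each library. The number run as a covariate and GF aCD3 against isotype within each run were tried too; each run against SPF, and Pparg without a filter, were added after seeing the data. The fit was tested on simulated data. Python 3.11.15 with pandas 2.3.3 was used.

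Named genes were the 9 members, at most 4 genes per pathway list and comparison (largest log2 fold change past the threshold, mean of at least 5 TPM in a group), and the 5 genes most like Gata3. Some genes of the lists are not reported here. Members, lists and rules were chosen with earlier results of these data known.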

Additional observations from a re-analysis of the deposited data

Results flagged for a closer look

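The aCD3 effect on Gata3 differed between GF and SPF mice by 0.92 on the log2 scale in the interaction term of limma, from 80.7 to 64.9 TPM in GF and from 52.1 to 21.8 TPM in SPF.

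Pparg in SPF aCD3 F3 stood apart from the 5 other libraries of its group, at 0.062 TPM (10 reads) against 0 to 0.017 TPM. It was the only 1 of 36 gene and group value sets to do so, and about 1 in 20 would by chance.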

How the results depend on the processing

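Of 1835 alternative values, 1640 kept their direction and side of the threshold (counts: within 1.5 times), 79 lost and 23 gained a call, 44 changed sign and 49 others moved; where no cause is named, it was not tested. For GF aCD3 against GF isotype the count of members called was 1 with no sex term, 2 with array weights, 3 with the number run as a covariate and 2 with libraries 25 to 33 alone, where Il4 was 0.16; Il17rb was 0.084 with libraries 48 to 54 alone. Without single libraries the count was 0 to 3.

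For GF against SPF isotype, 0 members were called after median-of-ratios scaling, quantile normalization or voom and with libraries 48 to 54 alone, with Gata3 at 0.44, 0.48, 0.45 and 0.22. In the first 3 of these Areg was -0.12, -0.14 and -0.15 and Il4ra -0.075, -0.083 and -0.075. Array weights gave Il4ra -0.038 and Ccr8 0.074, libraries 25 to 33 alone -0.058 and 0.46, and libraries 48 to 54 alone Il5 -0.11 and Areg -0.91. Without single libraries the count was 0 to 2, Gata3 0.52 to 0.65, Areg -0.096 to 0.18, Il4ra -0.025 to 0.17 and Ccr8 -0.26 to 0.026.

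For the interaction, 0 members were called after scaling (Gata3 0.68), quantile normalization (0.72), TPM without Rn45s and histone genes (0.79), a pseudocount of 5 (0.81), no filter (0.92), array weights (0.93) and with libraries 48 to 54 alone (0.98, with Il4 -0.12), and 2 with libraries 25 to 33 alone. Il17rb was -0.024 with quantile normalization and -0.0055 with voom, and Ccr8 was 0.12 with array weights, 0.026 with the run as a covariate and 0.43 with libraries 25 to 33 alone. Without single libraries the count was 0 to 2, Gata3 0.80 to 1.07 and Ccr8 -0.47 to 0.40.

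Elsewhere, GF against SPF under aCD3 called 3 members with quantile normalization and 3 with voom, and Ccr8 was 0.19 with array weights, 0.89 with libraries 25 to 33 alone and -0.62 to 0.25 without single libraries. Il5 in SPF mice was -0.056 with array weights and -0.099 to 0.15 without single libraries. Counts of all genes moved by over 1.5 times for GF aCD3 against isotype, from 862 to 0 with a pseudocount of 0.1, with no filter and with the block, to 2472 with no sex term, 3636 with array weights 2215 with the run as a covariate and 1647 and 0 with libraries 25 to 33 or 48 to 54 alone, and from 0 to 4213 without single libraries. For GF against SPF isotype, 874 became 199 after scaling, 178 with quantile normalization, 228 with voom, 2364 without Rn45s and histone genes, 1904 with array weights and 191 with libraries 48 to 54 alone, and 325 to 1137 without single libraries, lowest without SPF isotype F3 (325) and F1 (569). For the interaction, 424 became 1423 after scaling, 791 with quantile normalization, 1839 with voom, 774 and 273 with pseudocounts of 0.1 and 5, 233 with no filter, 159 with array weights, 162 with the block, 98 and 9 with libraries 25 to 33 or 48 to 54 alone, and 32 to 3187 without single libraries. For GF against SPF under aCD3, 6496 became 3986 after scaling, 3348 with quantile normalization, 3680 with array weights and 3754 with libraries 25 to 33 alone.

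Same-named libraries did not deviate together: 4 of 22 pairs had r above 0.1 (-0.21 to 0.20), so the names were not taken to pair mice. A replicate block kept 40 of 45 results, brought Il4 in GF against SPF isotype to 1.09 (adjusted p = 0.0435), Il4ra under aCD3 to 0.50 (adjusted p = 0.0985), and changed the sign of Il4ra (-0.019) and Ccr8 (0.42) under isotype and of Ccr8 (0.12) under aCD3. Depth limits Il5, Il13 and Pparg most.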
